A study of Mus musculus with 6 samples.

Results

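Genes of lipid droplet coat proteins and of droplet budding were examined in mouse femur: the perilipins Plin1, Plin2, Plin3, Plin4 and Plin5, the Cide genes Cidea, Cideb and Cidec, and the fat storage-inducing genes Fitm1 and Fitm2. All are called coat genes below for short, although the Fitm proteins are not droplet coats. These 10 genes were taken by name from a count table of 43346 genes, and all 10 were found in it. The set was chosen by measured values: it was proposed with log2 fold changes of the same comparison known, in which Cidec and Plin4 were high in radiated femur. Differences of these 10 genes between radiated and non-radiated femur are therefore given as descriptions. Where a sentence says how many of them passed the threshold of the fit over all genes, that is a description too and supports nothing. The animals were C57BL/6 mice aged 4 months. The non-radiated group was the left femur, which served as the contralateral control. The radiated group was the right femur, of which 5 mm of distal metaphysis had received a single focal dose of 24 Gy at 6.6 Gy per minute. Both femurs were harvested on day 21, ahead of the bone loss observed on day 28, with 3 libraries per group. No transgene, deletion or drug is named for either group, and the labels do not say which libraries came from the same mouse or that replicates are separate animals, so the spread between libraries may be technical.

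A lipid droplet is a core of triglyceride and sterol ester under a single layer of phospholipid, and coat proteins on that layer set how fast the fat is stored or released. Perilipins shield the core from lipases, Cide proteins sit where droplets touch and pass lipid from the smaller to the larger, and Fitm proteins act in the endoplasmic reticulum where droplets bud. In marrow, adipocytes with 1 large droplet lie among blood-forming and bone-lining cells, and their number is known to increase after radiation.

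Total gene counts were 34034251 to 48708383 per library. Summed transcripts of bone-forming cells (7 markers) and of marrow blood cells (8 markers) were present in all 6 libraries, as in bone with marrow. Both sums were lower in radiated femur without overlap: 4486 to 6772 CPM without and 3338 to 4217 CPM with radiation for bone-forming cells, with 3 of 7 markers past the threshold, all lower, and 4760 to 6104 CPM without and 4222 to 4528 CPM with radiation for marrow blood cells, with 1 of 8 lower and 2 higher. The largest parts of the 2 sums were Col1a1, at 5233 CPM in mean without and 3419 with radiation, and S100a8, at 2844 and 2058. Alpl was not lower, with a log2 fold change of 0.08 (SE 0.18). The lower blood marker was Itga2b (-1.41, SE 0.06), and the higher ones were Ebf1 (0.84, SE 0.09) and Cd79a (0.76, SE 0.08). The part of these cells in the differences of the coat genes was not tested. The 3 hepatocyte markers summed to at most 0.110 CPM. CPM values are gene counts scaled for depth, here by the trimmed mean of M-values (TMM). In non-radiated library 2 a single row, AY036118, held 32.9% of the counts, against 0.321% to 5.61% in the others. Summed transcripts of 15 skeletal muscle genes differed widely, at 576, 874 and 466 CPM without radiation and 1984, 6160 and 617 CPM with it, each in the order of library numbers 1, 2 and 3. Radiated library 3 thus lay within the range of the non-radiated libraries for the muscle sum. Values that leave out library 2 of either group are given for the genes with the largest differences.

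Of the 10 genes, 3 were higher by about an order of magnitude in radiated femur: Cidec, Plin1 and Plin4, the coat genes typical of white adipocytes. Plin2 and Fitm2, which many cell types express, were higher by a smaller amount without overlap between groups. Plin3, Plin5 and Cideb overlapped between groups, Fitm1 was high in 2 radiated libraries only, and Cidea was at or near 0 counts. In all, 8 of the 10 passed the filter on low counts, and Fitm1 and Cidea did not in the fit over all 6 libraries. By edgeR's quasi-likelihood test with Benjamini-Hochberg adjustment over 18757 genes, 5 of the 8 had an adjusted p under 0.05, all higher (Cidec, Plin1, Plin4, Plin2 and Fitm2), where 7.8% of all tested genes passed, 4.56% higher and 3.24% lower. The same 5 were the members whose groups did not overlap, which held for 25.9% of all tested genes. Because the set was chosen with this contrast known, nothing is read from these counts. The RNA came from whole tissue, in which more cells of a type and more RNA per cell cannot be told apart.

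**Figure D1:**
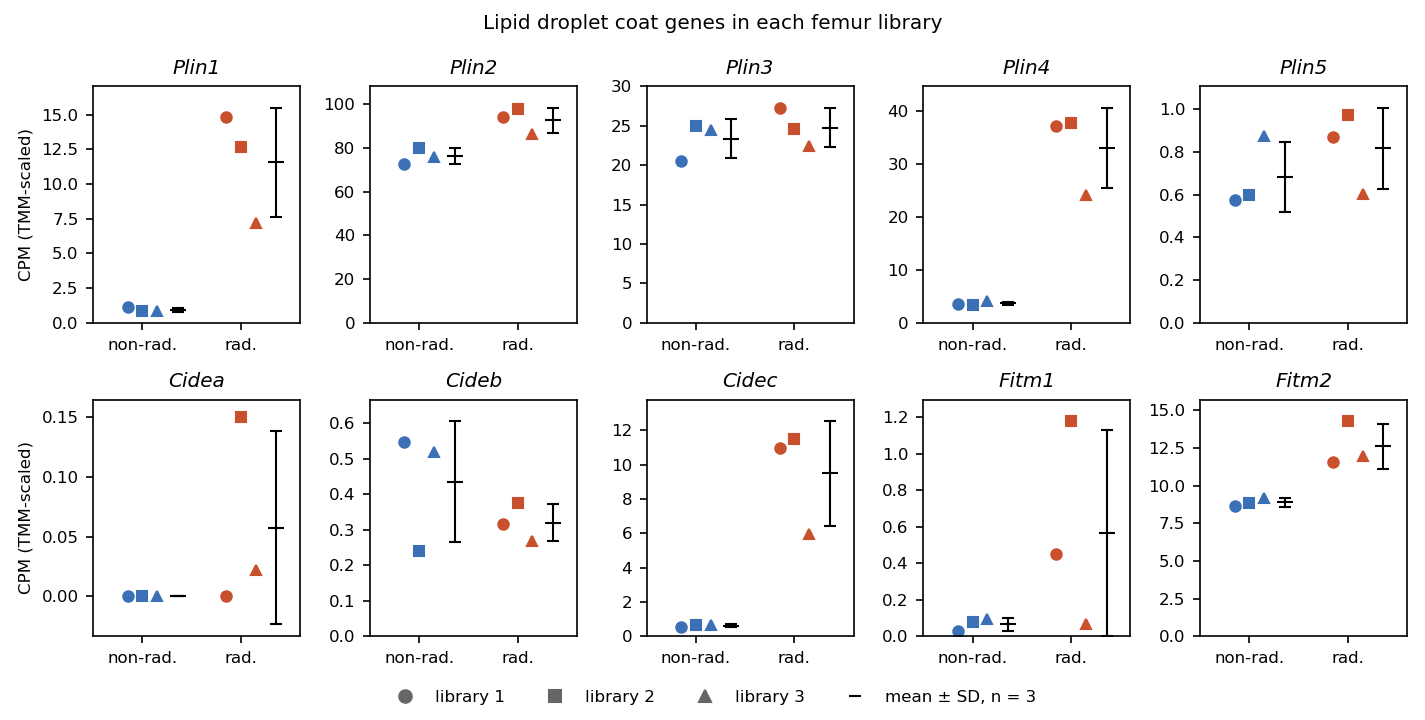
CPM (TMM-scaled, linear axes, vertical) of each of the 10 genes in the 3 non-radiated (blue) and 3 radiated (red) libraries, with marker shape giving the library number and black bars the mean ± SD (n = 3). Cidec, Plin1 and Plin4 separate widely, and for each of them radiated library 3 is the lowest of the radiated libraries.

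Cidec (ENSMUSG00000030278, build mm10, chromosome 6, 113424634 to 113435760), known also as Fsp27, encodes the protein that fuses droplets into the single large droplet of white adipocytes. It had 19, 17 and 27 counts without radiation and 415, 615 and 267 counts with it, in the order of library numbers. Scaled, these were 0.521, 0.679 and 0.637 CPM against 10.96, 11.5 and 5.98 CPM. Each radiated library lay far above each non-radiated one, and the means were 0.612 ± 0.0817 and 9.49 ± 3.05 CPM (SD, n = 3 each), a 15.5-fold ratio. The fitted log2 fold change was 3.96 (SE 0.28), the largest of the 8 genes that were fitted.

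Plin1 (ENSMUSG00000030546, chromosome 7, 79721164 to 79732776) encodes the main droplet coat of adipocytes, which holds back lipolysis until it is phosphorylated. Its levels were 1.12, 0.878 and 0.849 CPM in the non-radiated libraries and 14.8, 12.7 and 7.19 CPM in the radiated libraries, in the order of their numbers. The groups were far apart, with means of 0.951 ± 0.151 and 11.6 ± 3.94 CPM (SD, n = 3 each), a ratio of 12.2 and a log2 fold change of 3.60 (SE 0.28). Plin4 (ENSMUSG00000002831, chromosome 17, 56100591 to 56109803) encodes a perilipin of adipocytes that coats small, newly formed droplets. It was at 3.59, 3.35 and 4.08 CPM without radiation and 37.3, 37.7 and 24.3 CPM with it. The 2 groups again stood apart, and its log2 fold change was 3.16 (SE 0.18). When libraries of the same number were set against each other, the difference in log2 CPM for numbers 1, 2 and 3 was 4.27, 3.99 and 3.13 for Cidec, 3.66, 3.77 and 3.01 for Plin1 and 3.36, 3.47 and 2.56 for Plin4. Number 3 had the smallest difference for each of these genes.

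The sequence upstream of the start of these genes, as RefSeq gives it in build GRCm38.p6, is shown for Cidec, Plin1 and Plin4 because they were higher together, and for Plin2 as a perilipin with a small difference. Each stretch is read 5′ to 3′ on the strand of the gene (the minus strand for all 4), begins 250 bases before the RefSeq start site, and ends before the first exon of GENCODE M21. Capitals mark matches to a direct repeat, AGGTCA followed after 1 base (N) by AGGTCA again, the form bound by PPAR with RXR, with at most 3 of its 12 fixed bases different, and to the C/EBP core TTGCNNAA, on either strand. The stretches are chr6:113435761-113436010 for Cidec, chr7:79732904-79733026 for Plin1, chr17:56109804-56110032 for Plin4 and chr4:86670061-86670309 for Plin2.
Cidec: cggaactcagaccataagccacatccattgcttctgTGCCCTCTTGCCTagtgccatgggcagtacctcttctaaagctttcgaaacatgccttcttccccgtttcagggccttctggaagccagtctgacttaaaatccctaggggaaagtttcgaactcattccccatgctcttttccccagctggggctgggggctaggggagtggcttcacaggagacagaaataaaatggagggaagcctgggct
Plin1: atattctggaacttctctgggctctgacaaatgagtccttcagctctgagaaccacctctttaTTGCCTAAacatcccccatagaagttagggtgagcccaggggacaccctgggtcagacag
Plin4: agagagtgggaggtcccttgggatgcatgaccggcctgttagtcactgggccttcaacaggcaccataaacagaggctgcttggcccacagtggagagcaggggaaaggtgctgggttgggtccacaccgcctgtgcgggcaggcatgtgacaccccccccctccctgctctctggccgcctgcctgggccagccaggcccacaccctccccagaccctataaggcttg
Plin2: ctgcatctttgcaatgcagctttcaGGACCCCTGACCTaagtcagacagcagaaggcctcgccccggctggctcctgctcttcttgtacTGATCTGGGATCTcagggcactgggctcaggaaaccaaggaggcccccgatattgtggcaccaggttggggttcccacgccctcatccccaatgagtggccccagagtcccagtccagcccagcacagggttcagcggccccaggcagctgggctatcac

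In the window of 250 bases before its first start site, Cidec held 1 match to the direct repeat, at -214 to -202 from the start site on the opposite strand, with 3 bases different. Plin2 held 2 such matches, at -225 to -213 with 2 bases different and at -161 to -149 with 3. Plin1 held no match to the repeat and 2 to the C/EBP core, at -187 to -180 and, within an exon of another transcript and so not shown, at -58 to -51. The window before a second RefSeq start site of Cidec, at 113434764, held 1 match to the C/EBP core, at -198 to -191, and is not shown. Plin4 held neither. Of 32851 promoter windows of the same length, 21.3% held the direct repeat at this stringency and 9.56% the C/EBP core, which was in 2 of the 11 windows of the members (Plin1 and the second of Cidec). Among 11 windows of 9 of the 10 genes, with Cidea left out, 5 held the repeat. These were for Cidec, Plin2, Plin3, Plin5 and Fitm1, among them genes with large and with small differences. TATAAA was in 12.4% of all windows and in 1 of the 11, that of Cideb. A match of letters does not show binding, and sites farther from the start were not searched.

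None of the chromosomal neighbours of the 3 genes examined here passed the threshold. The nearest tested protein-coding genes on either side of Cidec, Rpusd3 and Jagn1, had log2 fold changes of 0.23 (SE 0.17) and -0.02 (SE 0.10). Those beside Plin1, Kif7 and Pex11a, were at 0.10 (SE 0.17) and -0.09 (SE 0.20). The 3′ end of Plin5 lies 1797 bases from the start of Plin4 on chromosome 17, and Plin5 had a log2 fold change of 0.24 (SE 0.28), against 3.16 for Plin4. Plin4 shares 6 bases with Hdgfrp2, which had 8986 counts over the 6 libraries and a log2 fold change of -0.00 (SE 0.09).

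Plin2 (ENSMUSG00000028494, chromosome 4, 86648386 to 86670060) encodes adipophilin, the coat of droplets in most cells, including lipid-laden macrophages. It was by far the most abundant of the 10, at 72.5, 80.0 and 75.9 CPM in the non-radiated libraries and 94.0, 97.5 and 86.2 CPM in the radiated ones. The lowest radiated library was above the highest non-radiated one, but by a narrow margin, and the log2 fold change was 0.28 (SE 0.06). Macrophage transcripts were higher as well: 12 of 12 markers were higher in mean, 8 of them past the threshold. Their sum was 973 to 1031 CPM without radiation and 1209 to 1424 CPM with it. Their part in the Plin2 difference was not tested. Plin3 (ENSMUSG00000024197, chromosome 17, 56278962 to 56290511) encodes a perilipin that moves from the cytosol onto new droplets. It was at 20.5, 25.0 and 24.5 CPM without and 27.3, 24.5 and 22.5 CPM with radiation, so the groups overlapped, and the log2 fold change was 0.09 (SE 0.10). Within numbers 1, 2 and 3 Plin3 differed by 0.41, -0.03 and -0.13 in log2 CPM, without a common direction.

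Levels of different genes were compared per kilobase of the gene length given in the table. In non-radiated femur Plin2 was highest, at 21.7 ± 1.07 CPM per kilobase (SD, n = 3), above Plin3 at 10.8 ± 1.15 and Fitm2 at 2.24 ± 0.0715, each step larger than the spread between libraries. Plin4 (0.636 ± 0.0643) and Plin1 (0.496 ± 0.0789) followed and overlapped each other. Cidec (0.330 ± 0.0440), Plin5 (0.327 ± 0.0792) and Cideb (0.292 ± 0.114) came next and could not be ordered beyond their spread. Fitm1 and Cidea were lowest. In radiated femur Plin1 (6.04 ± 2.06 CPM per kilobase), Plin4 (5.73 ± 1.32) and Cidec (5.11 ± 1.64) stood at 1 level whose ranges overlapped, between Plin3 (11.5 ± 1.13) and Fitm2 (3.18 ± 0.370). The range of Cidec overlapped that of Fitm2.

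The make-up of the perilipin transcripts differed accordingly. Plin2 was 65.3%, 63.8% and 62.6% of the summed level of Plin1 to Plin5 per kilobase without radiation and 49.5%, 52.7% and 56.8% with it, in the order of library numbers. Plin1 and Plin4 were 1.47% ± 0.330 and 1.88% ± 0.223 of that sum in non-radiated femur and 11.9% ± 2.88 and 11.4% ± 1.42 in radiated femur (SD, n = 3 each). The sum itself was 34.0 ± 2.10 CPM per kilobase without and 49.99 ± 5.92 with radiation. Shares are relative, and the lower shares of Plin2 and Plin3 stood beside levels of these genes that were not lower in mean.

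**Figure D2:**
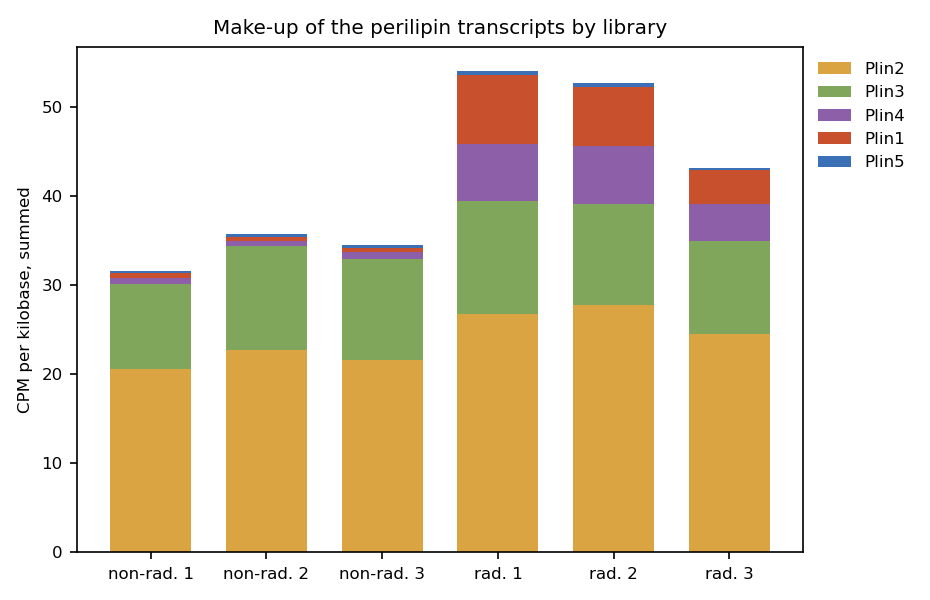
Stacked bars of the level per kilobase (CPM per kilobase, vertical axis from 0) of Plin1 to Plin5 in each of the 6 libraries. The Plin1 and Plin4 segments are thin in the non-radiated libraries and make up 8.69% to 14.3% and 9.72% to 12.4% of the bar in the radiated libraries.

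Fitm2 (ENSMUSG00000048486, chromosome 2, 163466379 to 163472629) encodes the widely expressed Fitm protein, which is needed for normal droplet formation in adipocytes. Its levels were 8.64, 8.86 and 9.20 CPM without and 11.6, 14.3 and 11.97 CPM with radiation. The groups did not overlap, the non-radiated libraries lay close together, and the log2 fold change was 0.50 (SE 0.11). Another gene, 2310001K24Rik, overlaps it by 673 bases and held 5 counts over the 6 libraries.

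Fitm1 (ENSMUSG00000022215, chromosome 14, 55575617 to 55576952) encodes the Fitm protein found mainly in skeletal muscle and heart. It had 1, 2 and 4 counts in the non-radiated libraries and 17, 63 and 3 counts in the radiated libraries, or 0.449, 1.18 and 0.0672 CPM in the latter. Radiated library 3 lay within the non-radiated range of 0.0274 to 0.0944 CPM. The radiated libraries had the same order for Fitm1 as for the sum of the 15 muscle markers, although Myh1, Myh2 and Mb were lowest in radiated library 1. The order of the muscle sum was not particular to Fitm1. It also held for Cidec, Plin2, Plin4, Plin5 and Cideb, and not for Plin1, Plin3, Fitm2 and Cidea. All 15 markers were higher in the mean and none passed the threshold (edgeR), with 15 at an unadjusted p under 0.05. In the 5 alternative fits that included Fitm1 its log2 fold change was 2.67 to 3.57, and it was past the threshold in 2 of them, with no filter (3.05, SE 0.77) and when radiated library 3 was left out (3.57, SE 0.62). The part of muscle in the Fitm1 values was not tested. Plin5 (ENSMUSG00000011305, chromosome 17, 56111601 to 56117596), the perilipin of heart, oxidative muscle and other tissues that burn fat, was at 0.576, 0.599 and 0.873 CPM without and 0.872, 0.974 and 0.605 CPM with radiation. Its groups overlapped, with a log2 fold change of 0.24 (SE 0.28), which was -0.06 (SE 0.37) with the summed muscle level as a covariate. In radiated libraries 1 and 2, where muscle transcripts were high, Plin5 was higher than in radiated library 3. Among the non-radiated libraries it was highest in library 3, at 0.873 CPM, where the muscle sum was lowest, at 466 CPM. The part of muscle in the Plin5 values was not tested.

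In radiated library 3 summed muscle transcripts were within the non-radiated range, at 617 CPM, although Myh1 was above it at 15.7 CPM, and Cidec, Plin1 and Plin4 were at 5.98, 7.19 and 24.3 CPM, against at most 0.679, 1.12 and 4.08 CPM in any non-radiated library. Their log2 fold changes were 3.79, 3.52 and 3.05 when radiated library 2 was left out and 3.43, 3.16 and 2.84 with the muscle level as a covariate. When non-radiated library 2 was left out they were 4.01, 3.54 and 3.09. Plin2 and Fitm2 were not past the threshold in any of these 3 fits. Both also fell short of it when non-radiated library 1 was left out, and Plin2 when non-radiated library 3 or radiated library 1 was. The part of muscle in the differences of the coat genes was not tested beyond these values.

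**Figure D3:**
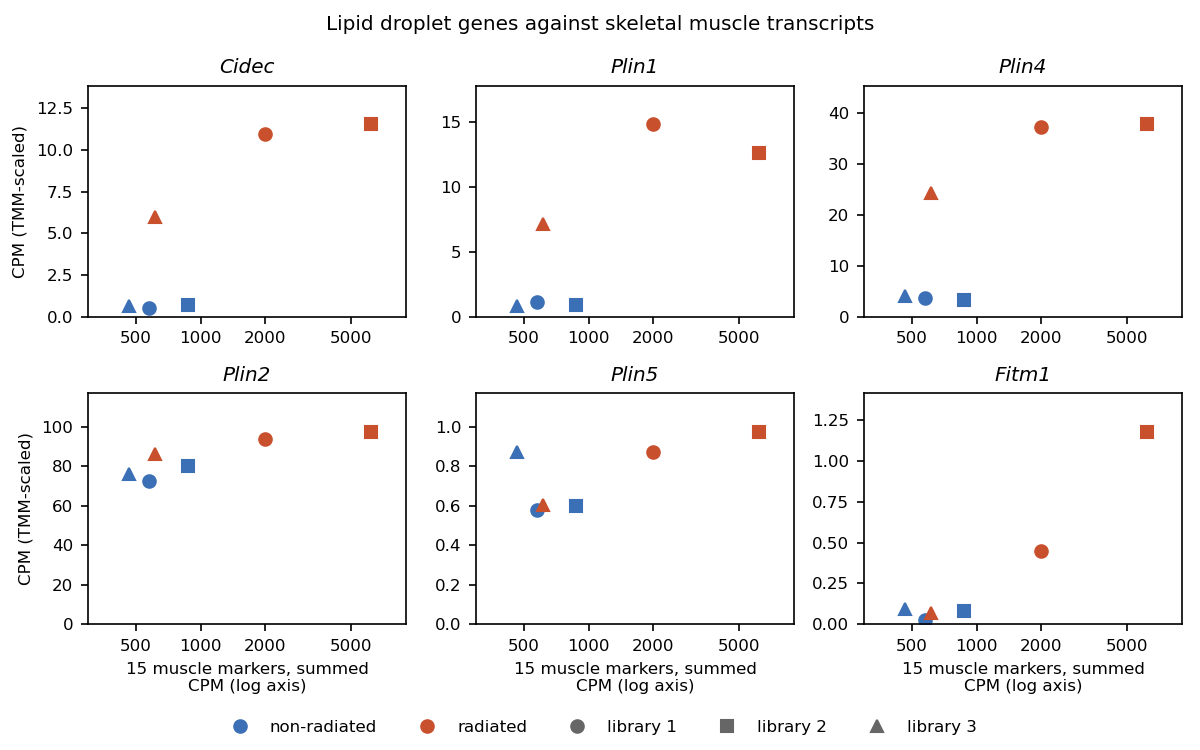
CPM (TMM-scaled, linear vertical axes from 0) of 6 lipid droplet genes against the summed CPM of 15 skeletal muscle markers (horizontal log axis) in the 3 non-radiated (blue) and 3 radiated (red) libraries, with marker shape giving the library number. Radiated library 3 (triangle, 617 CPM of muscle markers) is high for Cidec, Plin1 and Plin4 and low for Fitm1.

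Cideb (ENSMUSG00000022219, chromosome 14, 55754045 to 55758458) encodes the Cide protein of liver and intestine, which takes part in lipoprotein lipidation. It had 20, 6 and 22 counts without and 12, 20 and 12 counts with radiation, or 0.436 ± 0.171 and 0.320 ± 0.0529 CPM (SD, n = 3 each). The groups overlapped, and the log2 fold change of -0.48 (SE 0.37) was not distinguishable from no difference at this depth. Cideb shares 1456 bases with Nop9, which held 9574 counts over the 6 libraries. Whether counting used the strand is not stated, so the few Cideb counts are uncertain. Cidea, on chromosome 18, encodes the Cide protein of brown and beige fat. It had 0 counts in each non-radiated library, which allows up to 0.0823, 0.120 and 0.0708 CPM, and 0, 8 and 1 counts in radiated libraries 1, 2 and 3, so 8 of its 9 counts came from radiated library 2, the one with the most muscle transcripts. Limits of this kind cover counting error only. Ucp1, the defining gene of brown fat, had 0 counts in 5 of the libraries and 4 counts in non-radiated library 3. The 7 brown fat markers summed to 19.0 to 20.6 CPM without and 29.4 to 45.7 CPM with radiation, with 1 of 5 tested past the threshold. That marker was Pdk4, at 8.08 CPM in mean without and 19.5 CPM with radiation. Dio2, the other large part of the sum, was at 10.7 and 10.9 CPM. Cox8b and Cox7a1 were highest in radiated library 2, at 6.54 and 4.59 CPM. The sum is therefore no measure of brown fat, and the part of these markers in the Cidea counts was not tested.

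The adipocyte markers that are not coat genes showed a wide range of differences beside which the coat genes can be set. All 12 markers were higher in mean, 9 of them past the threshold, with log2 fold changes from 0.12 for Slc2a4 to 3.77 (SE 0.33) for Lep, the leptin gene. Cfd, encoding the adipokine adipsin, was at 3.03 (SE 0.16), and Adipoq, encoding adiponectin, at 1.02 (SE 0.13). The ratio of Cidec counts to Adipoq counts was 0.0289, 0.0452 and 0.0387 without radiation and 0.283, 0.332 and 0.221 with it, in the order of library numbers. For Plin1 the ratio was 0.0516 to 0.0623 without and 0.266 to 0.383 with radiation, and for Plin4 0.199 to 0.248 without and 0.897 to 1.09 with it. The ratio of Plin2 to Adipoq went the other way, from 4.02 to 5.33 without to 2.43 to 3.19 with radiation. Cidec and Plin4 were known to be high in this contrast when the set was chosen, so their higher ratios follow in part from the choice. The ratios were picked after values were seen, and nothing is read from them. The summed level of the 12 markers was 280 to 313 CPM without radiation and 644, 637 and 478 CPM with it, and it too was lowest in number 3 of the radiated libraries. The largest parts of this sum were Lpl, at 114 CPM in mean without and 240 with radiation, Fabp4 (64.3 and 93.6) and Car3 (57.2 and 132). Car3 was highest in radiated library 2, at 168 CPM, the library with the most muscle transcripts. The part of adipocyte markers in the differences of the coat genes was not tested.

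**Figure D4:**
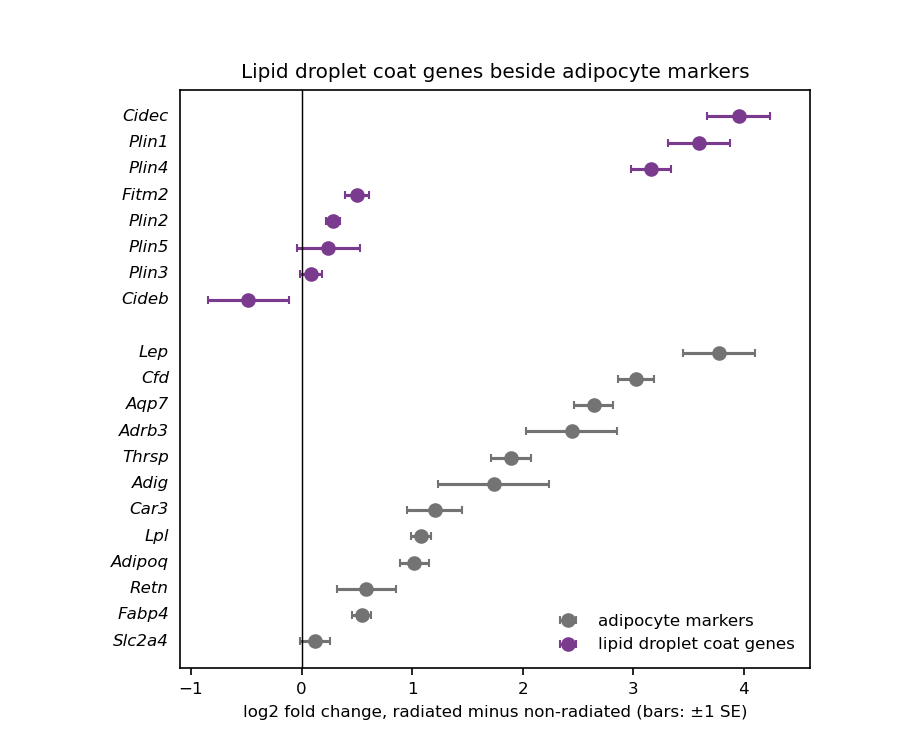
Log2 fold changes (radiated minus non-radiated, horizontal axis, bars ±1 SE) of the 8 coat genes that passed the filter (purple) and of 12 adipocyte markers (grey). Cidec, Plin1 and Plin4, at 3.96, 3.60 and 3.16, lie beside Lep and Cfd at 3.77 and 3.03, and the other coat genes lie below Adipoq at 1.02.

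Genes with profiles most like those of the coat genes were found by the root mean square difference of log2 CPM over the 6 libraries, centred on each gene's mean. Only genes that averaged 1 CPM or more were searched. For Cidec these were Pck1 (0.25), Plin1 (0.29), Klhdc7a (0.33), Eda2r (0.34) and A530016L24Rik (0.34), against a median of 1.93 over 15579 genes. Plin4 was closest to Cfd (0.11), followed by Cxcl13 (0.24), Klhdc7a (0.24), Plin1 (0.27) and Acvr1c (0.27). Plin1 was closest to Plin4 and Cidec themselves (0.27 and 0.29), then Acvr1c (0.34), Cfd (0.36) and Klhdc7a (0.36). Plin2 was nearest to Trim14, Cachd1, Gm20460, Psap and Tap1 (0.02 to 0.03, against a median of 0.20). The 6 libraries share the group difference, which dominates this measure, and the values describe likeness only.

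Other genes of droplet metabolism, from 4 lists with 69 genes, included 65 that were tested, of which 11 passed the threshold (9 higher, 2 lower), or 16.9% against 7.8% of all tested genes. Their median log2 fold change was 0.02, with 0.00 over all genes tested. The lists were drawn up with earlier results of these data known, so this share is a description.

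Among 13 genes of lipolysis at the droplet, 3 rose and 1 fell. Lipe, encoding hormone-sensitive lipase, which acts on droplets coated by perilipin, rose from 13.7, 15.7 and 18.5 CPM to 29.3, 28.5 and 23.2 CPM (0.76 on the log2 scale, SE 0.13, with an edgeR adjusted p of 0.00696). The groups did not overlap for Lipe. Pnpla3, encoding a lipase and acyltransferase of droplets, rose from 0.323 ± 0.0319 to 1.49 ± 0.346 CPM (SD, n = 3 each), by 2.22 on the log2 scale (SE 0.27). Lipa, the lysosomal acid lipase, rose by 0.48 (SE 0.06). Prkar2b, a regulatory subunit of the protein kinase A that phosphorylates perilipin and hormone-sensitive lipase, fell by 0.59 on the log2 scale (SE 0.06), a call that was lost with library totals in place of TMM (-0.38, SE 0.21). In non-radiated femur Prkar2b averaged 197 CPM, against 16.5 CPM for Adipoq. Which cells its transcripts came from was not tested. The other named genes of this list did not pass the threshold: Pnpla2, the adipose triglyceride lipase, at 0.25 (SE 0.11), its activator Abhd5 at -0.09 (SE 0.05), and its inhibitors G0s2 and Hilpda at 0.21 (SE 0.21) and 0.10 (SE 0.11). Mgll, the monoglyceride lipase, was at -0.01 (SE 0.09).

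Among 18 tested genes of neutral lipid synthesis and droplet biogenesis, 2 rose. These were Gpam and Gpat3, which encode acyltransferases of the first step of glycerolipid synthesis, at log2 fold changes of 0.58 (SE 0.06, edgeR adjusted p 0.000791) and 0.51 (SE 0.09). With library totals in place of TMM the call of Gpat3 was lost (0.69, SE 0.23). Bscl2, encoding seipin, which shapes the budding droplet, was at 0.04 (SE 0.06). The last acyltransferases of triglyceride synthesis, Dgat1 and Dgat2, were at -0.14 (SE 0.08) and -0.02 (SE 0.11), and the sterol acyltransferase Soat1 at -0.01 (SE 0.05). None of these last 4 passed the threshold. Of 21 other genes whose products are found on droplets, Cav1, encoding caveolin of the cell membrane and of adipocyte droplets, rose by 1.33 (SE 0.21, edgeR adjusted p 0.00536), from 4.11 to 6.34 CPM in the non-radiated libraries to 9.55 to 16.0 CPM in the radiated ones. Vps13a, a lipid transfer protein, fell by 0.28 on the log2 scale (SE 0.06), a call that was lost in 6 of 14 alternatives.

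Of 13 nuclear receptors and factors that act on perilipin and Cide genes, 3 rose by small amounts. Pparg, the receptor that drives adipocyte genes, was at 19.5, 20.6 and 17.7 CPM without and 26.7, 24.6 and 22.5 CPM with radiation, without overlap (0.35 on the log2 scale, SE 0.09, with an edgeR adjusted p of 0.0451). Its partner Rxra rose by 0.38 (SE 0.08) and the sterol receptor gene Nr1h3 by 0.49 (SE 0.12). Cebpa, an adipocyte factor that marrow granulocytes also express, was at 0.22 (SE 0.06, edgeR adjusted p 0.0805) and did not pass. The calls of Pparg, Rxra and Nr1h3 were each lost when library 1 or 2 of either group was left out, with the muscle level as a covariate and with library totals in place of TMM. Leaving out non-radiated library 3 ended the call of Pparg too, and leaving out radiated library 3 that of Nr1h3.

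**Figure D5:**
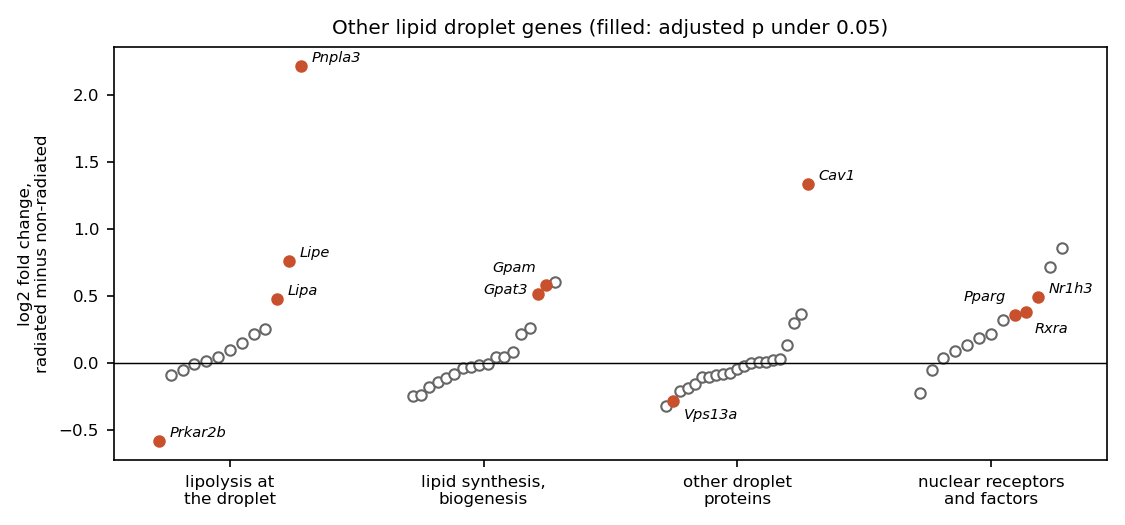
Log2 fold changes (radiated minus non-radiated, vertical axis) of the tested genes in the 4 lists of other lipid droplet genes, 1 point per gene in rising order, filled where edgeR's adjusted p was under 0.05. Most points lie near 0, and Pnpla3 at 2.22 and Cav1 at 1.33 are the highest.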

How the data were processed

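RNA-seq gene counts of 6 femur libraries were used. Per the labels' protocols, muscle was removed, bone was homogenized, RNA was isolated on columns and stranded mRNA libraries were made. The submitters' processing notes name bcl2fastq, STAR 2.5.2b, Subread, featureCounts and build mm10, with no settings. Strand use, filters and the annotation release are not given in the sources used here. The deposited count columns hold whole numbers per gene and library. The deposited RPKM columns are scaled by length and library, and were used only as an alternative for shares. The Length column, per the file headers a gene length, is another deposited measure, in bases.

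Counts were fitted with edgeR 4.0.16 in R 4.3.3: filterByExpr (minimum count 10, minimum total 15; 18757 genes kept), TMM, and glmQLFTest on group alone. A call is a Benjamini-Hochberg adjusted p under 0.05 over every tested gene. Dividing a log2 fold change by the root of its F statistic gave its standard error. The coefficient that edgeR names biological variation was 12.9%, which here is spread between libraries and may be technical. Fold changes are relative to the bulk of genes. Chi-square over degrees of freedom between replicates was 16.6 to 580, more than sampling noise. The fit was tested on simulated data. Alternatives were DESeq2 1.42.0 (Wald test and its size factors), library totals alone, limma-voom (limma 3.58.1), other filters, the replicate number as a block, the muscle level as a covariate, and leaving out each library. DESeq2 gave some adjusted p as NA, and these were left out.

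The 10 genes, the lists and the rule for naming genes (all 10, 12 pathway genes whatever their values, the called genes of each list up to 6, and the 5 genes most alike) were chosen with earlier results of these data known. Adipocyte and brown fat markers, neighbours and ratios to Adipoq named beside them fall outside that rule and were chosen after values were seen. The table matched 68 of 69 pathway genes, including 4 matched by ID. Promoters are RefSeq's, build GRCm38.p6, and windows of 9 of the 10 genes were used here. Windows on chromosome 18, where Cidea lies, were left out of the member windows but not of the 32851 windows.

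Deviations of libraries from their group means correlated across genes at 0.166, 0.277 and 0.187 for equal numbers 1, 2 and 3 and between -0.170 and -0.008 for unequal ones. Deviations within a group sum to 0, so the values for unequal numbers are not separate evidence. The numbers may pair the libraries, but these values do not establish it. The labels do not say so, and the fit on group alone was kept as the reported one.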

Additional observations from a re-analysis of the deposited data

How the results depend on the processing

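Over 14 alternatives the log2 fold changes of Cidec, Plin1 and Plin4 were 3.43 to 4.20, 3.16 to 3.84 and 2.84 to 3.34. Because the genes were chosen with this contrast known, these ranges and the counts of members past the threshold describe the fits and support nothing. Of 15 settings, the reported one included, Plin2 was past it in 8 and Fitm2 in 10. The count of the 10 genes past it, 5, was 3 under library totals alone and with the muscle covariate, and 3 to 6 when a library was left out, with Fitm1 as the sixth. The 9 other droplet genes called higher became 5 under library totals alone and were 6 to 9 without a library. The 2 called lower became 0 and 1 with those settings, and 1 to 2 without a library. All called genes, 1463, became 974 with the muscle covariate and 764 to 1376 without a library, with 764 without radiated library 1 and 819 and 905 without non-radiated libraries 2 and 1. Library totals alone moved the median over all genes to 0.195 on the log2 scale and the share of calls that were higher from 58.5% to 85.4%. With the replicate block, 5 of the 10 genes, 9 and 2 other droplet genes and 1670 of all genes were called, so the block changed none of these counts by over 1.5 times.

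Direction reversed for genes near 0. Plin3 was at -0.00235 to 0.151 when a library was left out, and Plin5 at -0.0632 with the muscle covariate. Under library totals alone Abhd5, Mgll, Dgat1, Dgat2 and Soat1 were at 0.106, 0.196, 0.0460, 0.185 and 0.185. With a library left out Mgll ranged from -0.0961 to 0.0547, Dgat2 from -0.0941 to 0.0939 and Soat1 from -0.0355 to 0.00121. The cause of these shifts was not tested. The direct repeat was in 1 of 11 windows with at most 2 bases different (3.24% of all windows) and in 9 with at most 4 (74.5%). The adipocyte marker level was not run as a covariate. Depth limits Cidea, Fitm1 and Cideb, with at most 22 counts per library other than 63 for Fitm1. Counts per non-radiated library were also low for Cidec (17 to 27), Plin1 (22 to 41) and Plin5 (15 to 37).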
